A study of Schizosaccharomyces pombe with 6 samples.

Results

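Fission yeast (Schizosaccharomyces pombe) responds to a poor nitrogen supply by taking up other nitrogen sources and breaking down its own protein, and 7 genes of that response are described here. They were picked by name and identifier, with no threshold on measured values, and with earlier results of these data known: isp4 (SPBC29B5.02c.1), isp5 (SPAC1039.09.1), isp6 (SPAC4A8.04.1), gdh2 (SPCC132.04c.1), dao1 (SPCC1450.07c.1), amt1 (SPCPB1C11.01.1) and fnx1 (SPBC12C2.13c.1). They are 7 of the 7269 features counted, and lie on chromosomes I (isp5, isp6), II (isp4, fnx1) and III (gdh2, dao1, amt1). The tested strain, called the mutant below, is haploid and carries the sad1.2 allele of sad1 together with a deletion of csi1; the control strain is haploid wt. Per the labels, the study asked by RNA-seq what centromere declustering does to gene expression. Both strains were grown asynchronously in rich medium at 30 °C, as cultures of 30 mL, and taken in exponential growth when the optical density was 0.5. The labels give 3 biological replicates for both strains, and each library was made from 5 µg of total RNA by oligo-dT selection. The mutant combines an allele with a deletion, so effects of sad1.2 and of the csi1 deletion cannot be told apart in these libraries.

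Ammonium and glutamate are good nitrogen sources for this yeast, and in their presence TOR complex 1 is known to hold down genes for the use of poorer ones. When nitrogen runs short, amino acid and ammonium transporters are made, vacuolar proteases recycle protein, and enzymes such as glutamate dehydrogenase release ammonium from amino acids. Nitrogen shortage is also the usual trigger for mating and meiosis in fission yeast. The isp genes were named for their induction in sexual differentiation, and the cultures here were not starved.

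Total counts per library lay between 19074531 and 19951875. The deleted gene csi1 had 210, 204 and 63 counts in the mutant libraries, against 1271, 1142 and 1225 in wt. On the opposite strand csi1 overlaps mrm2, and the source of its remaining counts in the mutant was not tested. Levels are given as CPM, the gene's counts scaled to a common library size after TMM normalization, and fold changes are mutant over wt from edgeR's quasi-likelihood test. The sad1 gene stood at 152.7 ± 6.81 CPM in the mutant and 81.8 ± 1.66 CPM in wt (SD, n = 3 each). A gene is called at a Benjamini-Hochberg adjusted p under 0.05 over all 4941 tested features; all 7 members were tested. Mutant replicate 3 and wt replicate 2 deviated from the rest of their genotypes in a shared direction (r = 0.66 over tested genes), so results are also given without these 2 libraries.

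Of the 7 genes, 3 were higher in the mutant, the vacuolar protease gene isp6 and the catabolic enzyme genes gdh2 and dao1, by 2.20-, 2.10- and 1.66-fold. None was lower by edgeR (0 at an unadjusted p under 0.05, 0 by DESeq2 and 0 by limma voom). Over the whole table, 2.29% of features were higher and 0.121% lower (2.41% in either direction), and 1.41% of the 2760 coding genes in the range of mean levels of the 7 (22.9 to 202 CPM) were higher. At an unadjusted p under 0.05, 4 of the 7 were higher, against 14.5% of features. In these bulk libraries, more transcript in every cell and more cells with the transcript cannot be told apart. In the same 3 genes each mutant library lay above each wt library, which held for 16.7% of tested features. The other 4 genes overlapped between genotypes and did not pass. Log2 fold changes were positive in 6 genes and negative in fnx1, where 50.7% of tested features and 47.1% of the coding genes in that range were positive. The median of the 7 was 0.73, against 0.00 over all tested features and −0.01 over those coding genes.

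**Figure D1:**
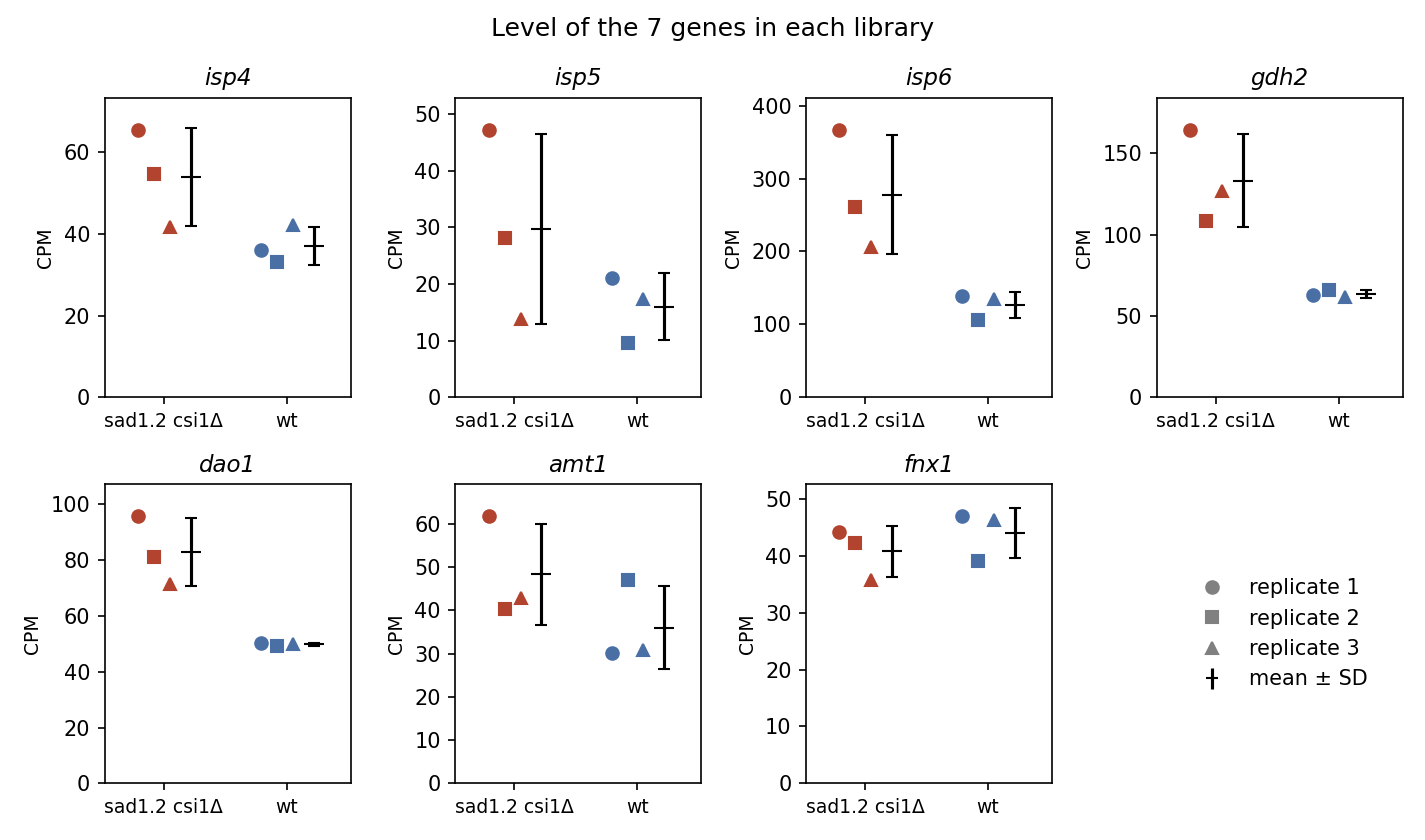
Level in CPM (vertical axes, from 0) of each of the 7 genes in the 3 sad1.2 csi1Δ libraries (red) and the 3 wt libraries (blue), with the mean ± SD in black and a marker shape for each replicate number. The red points of isp6, gdh2 and dao1 lie above all blue points, while isp4, isp5, amt1 and fnx1 overlap.

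Per length, isp6 was the most abundant of the 7 transcripts in both strains. Its level was 130.0 ± 38.1 CPM per kb in the mutant and 59.1 ± 8.37 CPM per kb in wt (SD, n = 3 each). The dao1 gene followed, with 61.8 ± 9.13 CPM per kb in the mutant and 37.2 ± 0.337 in wt (SD, n = 3 each). The third place was held by gdh2 in the mutant (36.9 ± 7.91 CPM per kb) and by fnx1 in wt (22.0 ± 2.19 CPM per kb; SD, n = 3). The lowest level was that of isp5, at 15.7 ± 8.86 CPM per kb in the mutant and 8.46 ± 3.14 in wt. In the mutant the library ranges of neighbours in this order overlapped from isp4 downward, through fnx1, amt1 and isp5. In wt they overlapped only between isp4 and amt1 and between amt1 and isp5.

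Glutamate catabolism was represented by gdh2, which encodes the NAD-dependent glutamate dehydrogenase that turns glutamate into 2-oxoglutarate and ammonium. Its level was 164, 108 and 127 CPM in mutant replicates 1, 2 and 3, against 62.8, 66.0 and 61.4 CPM in wt. The wt libraries sat close together and the mutant libraries spread over a 1.52-fold range, all above wt. Its log2 fold change was 1.07 (SE 0.153, adjusted p in edgeR = 0.0248), the smallest adjusted p of the 7 genes. The call was lost without wt replicate 1 (adjusted p = 0.102), wt replicate 3 (0.139) or mutant replicate 2 (0.0641), in each of which edgeR called 0 genes of the table (809, 678 and 932 at an unadjusted p under 0.05). Losses of calls in these fits, also for the genes below, were thus shared by the whole table. Without mutant replicate 1, edgeR called 17 genes higher and 0 lower, gdh2 among them (685 at an unadjusted p under 0.05). On the opposite strand gdh2 overlaps SPCC132.03, an uncharacterized coding gene with a log2 fold change of 0.56 (SE 0.123, adjusted p in edgeR = 0.0631), and whether the counting used strand is not given in the sources used here.

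The dao1 gene encodes a D-amino acid oxidase, a flavoenzyme that deaminates D-amino acids with release of ammonium and hydrogen peroxide. It stood at 95.7, 81.3 and 71.4 CPM in mutant replicates 1 to 3, against 50.2, 49.3 and 49.8 CPM in wt. The wt values differed by less than 1 CPM, the narrowest wt spread of the 7 genes (coefficient of variation 0.907%), and the groups did not overlap. In log2 terms dao1 was higher by 0.73 (SE 0.118, adjusted p in edgeR = 0.0344). Of the 6 fits with a library left out, the gene passed only without mutant replicate 3 (adjusted p = 0.0238). The other values were 0.102 and 0.139 without mutant replicates 1 and 2, and 0.129, 0.0588 and 0.187 without wt replicates 1, 2 and 3.

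Isp6 is a subtilisin-type serine protease of the vacuole, known to be needed for bulk protein breakdown by autophagy in nitrogen-starved cells. It was measured at 366, 261 and 206 CPM in mutant replicates 1 to 3, against 138, 106 and 135 CPM in wt. The lowest mutant library was well above the highest wt library, and within the mutant the values differed by up to 1.78-fold. Its log2 fold change was 1.14 (SE 0.217), the largest of the 7, with an edgeR adjusted p of 0.0494, just under the threshold. It passed without mutant replicate 3 (adjusted p = 0.0286). It did not pass without mutant replicate 1 or 2 (0.135 and 0.141) or wt replicate 1, 2 or 3 (0.142, 0.0751 and 0.206). On the same strand isp6 overlaps SPNCRNA.834, annotated as a non-coding RNA that may be an alternative UTR. That feature had 11.9, 8.02 and 6.39 CPM in the mutant and 2.62, 3.60 and 2.55 CPM in wt, with a log2 fold change of 1.59 (SE 0.291, adjusted p in edgeR = 0.0466; not called without wt replicate 1, 2 or 3 or mutant replicate 1 or 2, at up to 0.216).

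The 4 genes that did not pass encode membrane transporters. The isp4 product belongs to the oligopeptide transporter family of the plasma membrane. Its level was 65.5, 54.7 and 41.7 CPM in mutant replicates 1 to 3, against 36.1, 33.0 and 42.2 CPM in wt. Mutant replicate 3 fell among the wt values and the other mutant libraries lay above them. For isp4 the log2 fold change was 0.54 (SE 0.182, adjusted p in edgeR = 0.151, unadjusted p = 0.0205).

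The amino acid permease gene isp5 varied most between libraries of a strain. It was at 47.2, 28.1 and 13.8 CPM in mutant replicates 1 to 3, against 21.1, 9.49 and 17.4 CPM in wt. The highest and lowest libraries differed 3.42-fold in the mutant and 2.23-fold in wt, and mutant replicate 3 lay below 2 of the 3 wt libraries. The log2 fold change of 0.89 (SE 0.465) was the third largest of the 7, and the edgeR adjusted p was 0.307. Without mutant replicate 1 it was 0.36 (adjusted p = 0.775), which was no longer the third largest. Relative to the wt mean, mutant replicates 1, 2 and 3 stood at log2 values of 1.56, 0.81 and −0.21.

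The ammonium transporter gene amt1 had 61.8, 40.4 and 42.9 CPM in mutant replicates 1 to 3, against 30.2, 47.0 and 30.9 CPM in wt. The overlap came from wt replicate 2, which was above mutant replicates 2 and 3, while the other wt libraries were below every mutant library. In amt1 this came to a log2 fold change of 0.43 (SE 0.233, adjusted p in edgeR = 0.329). Without wt replicate 2 it was 0.65 (adjusted p = 0.113), and without mutant replicate 1 it was 0.20 (0.744).

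Fnx1 moves amino acids into the vacuole and is known for its part in entry into the quiescent state on nitrogen starvation. Its gene had 44.2, 42.2 and 35.8 CPM in mutant replicates 1 to 3, against 46.9, 39.0 and 46.2 CPM in wt. All 6 values lay within a narrow band and the groups overlapped. The log2 fold change was −0.11 (SE 0.126, adjusted p in edgeR = 0.653). With library sizes in place of the TMM factors it was 0.01 (adjusted p = 0.976), while the median of all tested features was then 0.13.

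The libraries of a strain were ordered alike in most of the genes. Mutant replicate 1 was the highest mutant library in 7 of 7 genes, and mutant replicate 3 the lowest in 5. In wt, replicate 2 was the lowest library in 5 genes and the highest in gdh2 and amt1. The median log2 value of the 7 genes relative to the wt mean was 0.94, 0.70 and 0.28 in mutant replicates 1, 2 and 3, and 0.01, −0.16 and 0.07 in wt replicates 1, 2 and 3. Summed over the 7 genes, the level was 845, 616 and 538 CPM in the mutant libraries and 386, 350 and 383 CPM in wt, and isp6 made up 43.4%, 42.4% and 38.3% of it in the mutant and 35.9%, 30.3% and 35.3% in wt. No mutant sum reached down to a wt sum. The median log2 value over all tested features stayed between −0.01 and 0.02 in every library. Weakly expressed coding genes (286 genes at a mean of 0.5 to 5 CPM per kb over all 6 libraries) also had higher values in the mutant. Their median gain over the wt mean was 0.555, 0.388 and 0.171 CPM per kb in mutant replicates 1, 2 and 3. In wt these medians were 0.0338, −0.133 and 0.0608, centred near 0 because gains were taken from the wt mean. The mutant libraries entered the choice of these genes, so a gene could qualify through a high mutant level. The part of this gain in the results was not tested beyond a fit with the median gains subtracted from the mutant counts. In that fit isp6 had a log2 fold change of 1.17 (adjusted p in edgeR = 0.0626), gdh2 1.09 (0.0324) and dao1 0.76 (0.0445). The gains are small beside the mutant levels of isp6, gdh2 and dao1, 130, 36.9 and 61.8 CPM per kb. The fit therefore cannot decide what part background had.

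Without mutant replicate 3 and wt replicate 2, which left 2 libraries a strain, edgeR called 5 of the 7 genes higher and 0 lower, while 14.3% of 5008 tested features were called higher. The log2 fold changes were 1.196 for isp6 (SE 0.159, adjusted p = 0.00891), 1.13 for gdh2 (SE 0.212, 0.0303) and 0.82 for dao1 (SE 0.0906, 0.00234). Those of isp4 and amt1 passed as well, at 0.62 (SE 0.115, adjusted p = 0.0137) and 0.74 (SE 0.198, 0.0499). For isp5 the value was 0.97 (SE 0.267, 0.0604) and for fnx1 −0.11 (SE 0.079, 0.335). The 2 libraries were picked for their deviation in these same data, and leaving out such libraries tends to narrow the spread within a strain. Calls over the whole table rose from 113 to 716 higher, so the gained calls are not independent of that choice.

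**Figure D2:**
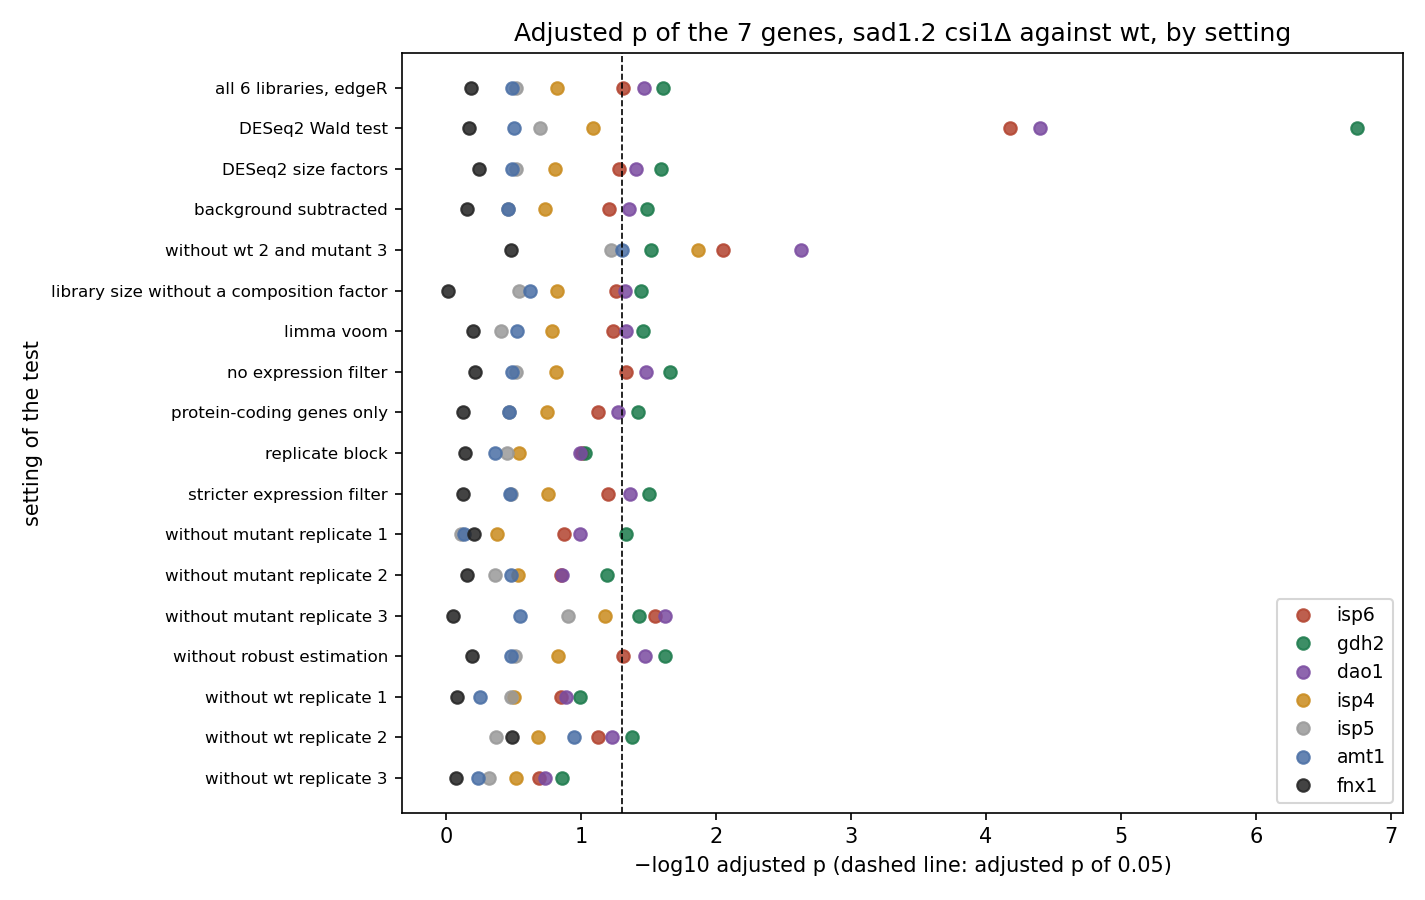
The horizontal axis is −log10 of the adjusted p for each gene (colours), sad1.2 csi1Δ against wt, and each row is a setting of the test; points right of the dashed line are under 0.05. With all 6 libraries gdh2, dao1 and isp6 stand just right of the line at 0.0248, 0.0344 and 0.0494, and far right of it with DESeq2, while fnx1 is left of it in every row.

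In the authors' deposited table, 3 of the 7 genes also had an adjusted p under 0.05. They were gdh2, isp6 and dao1, at log2 fold changes of 0.90 (SE 0.149, DESeq2 adjusted p = 2.13e-07), 0.87 (SE 0.178, 6.87e-05) and 0.64 (SE 0.129, 5.02e-05) in the authors' deposited table. The other 4 genes had adjusted p from 0.0835 for isp4 to 0.640 for fnx1 in the authors' deposited table. How many of all features were under 0.05 there was not counted, so these 3 genes have no share beside them. DESeq2 run here on the same counts called 6.56% of features higher, and the same 3 genes among the 7.

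The genes whose log2 CPM over the 6 libraries followed each member most closely were listed from 4096 other coding genes, all with mean levels of 5 CPM or more. For isp6 they were pbi2, annotated as a proteinase B inhibitor (Pearson r = 0.998), the uricase gene uro1 (0.998) and the meiotic recombination gene rec10 (0.997). The level of pbi2 was 291, 209 and 148 CPM in the mutant, against 99.8, 67.3 and 93.1 CPM in wt, with a log2 fold change of 1.31 (SE 0.261, adjusted p in edgeR = 0.0544). In uro1 the values were 75.7, 58.7 and 51.8 CPM in the mutant and 35.6, 29.8 and 35.6 CPM in wt, and it was called (log2 0.88, SE 0.162, adjusted p in edgeR = 0.0466), as was rec10 (1.27, SE 0.218, 0.0418). Both calls were lost in every fit with 1 library left out except that without mutant replicate 3, at adjusted p up to 0.195 for uro1 and 0.187 for rec10.

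The closest to dao1 were the serine protease gene htr11 (r = 0.996), SPAC4H3.08, annotated as a 3-hydroxyacyl-CoA dehydrogenase (0.996), and the uncharacterized SPBC1539.02 (0.995). Of these htr11 and SPAC4H3.08 were called higher, with log2 fold changes of 1.02 (SE 0.134) and 1.13 (SE 0.154), both at an edgeR adjusted p of 0.0234, and both lost the call without wt replicate 1 or 3 or mutant replicate 1 or 2 (up to 0.139). SPBC1539.02 was at 0.51 (SE 0.106, adjusted p = 0.0587). For gdh2 the list was the kinetochore gene spc7 (r = 0.996), the DNA polymerase epsilon gene cdc20 (0.993) and xrc4 (0.990), none of them called. The genes nearest to isp4 were csn1, sdh2 and thi9 (0.993, 0.991 and 0.987), to isp5 SPAC23H4.05c, SPCC285.04 and kha1 (0.998, 0.996 and 0.996), to amt1 csk1, SPBC685.03 and pib2 (0.979, 0.974 and 0.973), and to fnx1 sbg1, SPAC1F7.11c and pet3 (0.994, 0.989 and 0.986). The mean standardized profile of the 7 genes was followed most closely by SPAC922.05c, a transporter gene (0.999), SPCC757.13, annotated as a dipeptide transporter (0.996), and npc2 (0.996), none of them called. With 6 libraries and 4096 candidates, values this high are a description of these libraries.

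**Figure D3:**
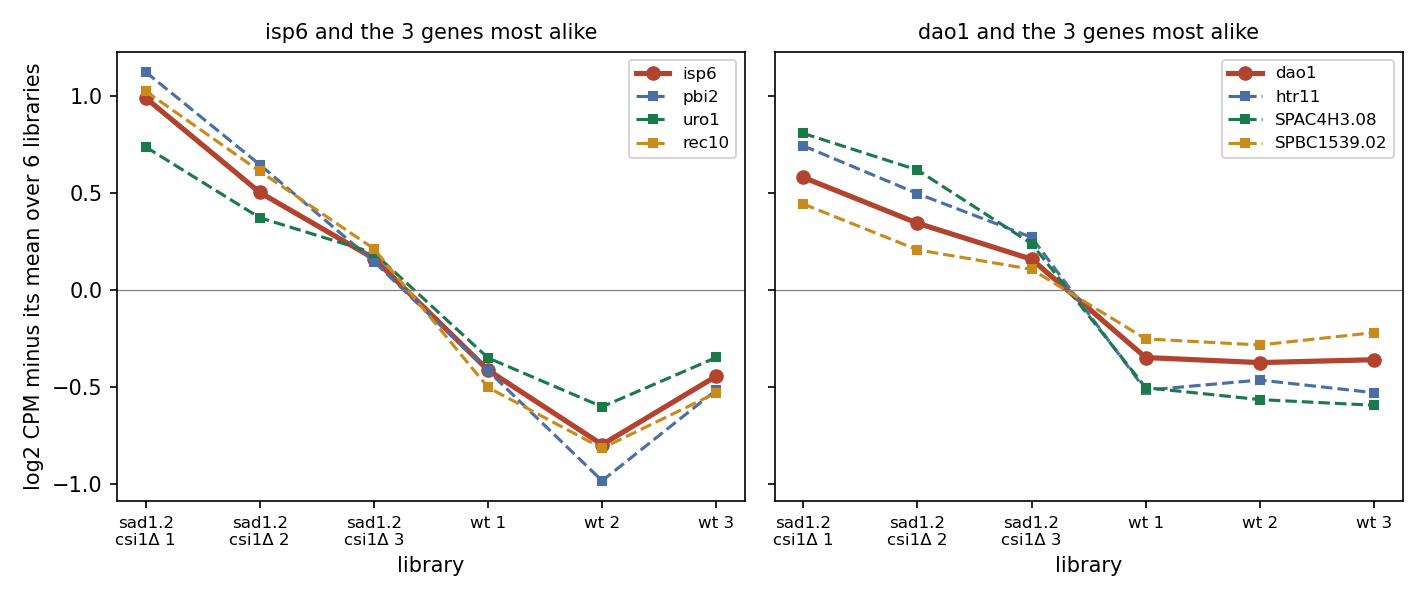
Log2 CPM minus its mean over the 6 libraries (vertical axis) for isp6 and dao1 (red) and the 3 coding genes of highest Pearson r with each (other colours), with the 3 sad1.2 csi1Δ libraries left of the 3 wt libraries. All curves are highest in mutant replicate 1, and in the isp6 panel all are lowest in wt replicate 2.

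Other genes of nitrogen uptake and use were described by lists that leave out the 7 members. For reading their counts, 14.5% of all tested features were higher and 8.12% lower at an unadjusted p under 0.05, and DESeq2 called 6.56% higher and 2.63% lower. The negative medians of the peptide transporter, amino acid transporter, uptake regulator and catabolism lists were positive with library sizes in place of TMM factors, which moved the median of all features to 0.13. Across all the lists, 8 genes had no count in any library, and each of them overlaps another annotated feature on the opposite strand. Since the strand setting is not known, those zeros are not read as absence of the transcript. Among ammonium transporters, amt2 was the one tested gene and did not pass, at 32.1 ± 0.632 CPM in the mutant and 28.3 ± 3.38 CPM in wt (SD, n = 3 each; log2 0.18, SE 0.118, adjusted p in edgeR = 0.413). Of the peptide transporter genes, ptr2 and the glutathione transporter gene pgt1 were tested, with log2 fold changes of −0.05 (SE 0.227, adjusted p in edgeR = 0.932) and −0.01 (SE 0.131, 0.985). Both lists had 0 calls by edgeR and 0 at an unadjusted p under 0.05; DESeq2 called 1 ammonium and 0 peptide transporter genes, and limma voom 0.

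Among 13 tested amino acid transporter genes, edgeR called 0 (at an unadjusted p under 0.05, 2 higher and 1 lower; DESeq2 2 and 1, limma voom 0). The median log2 fold change was −0.02, with 6 positive and 7 negative values. The amino acid permease gene aat1 was at 118, 109 and 87.8 CPM in the mutant, against 165, 136 and 155.5 CPM in wt. All mutant values were below wt, and the gene did not pass (log2 −0.53, SE 0.132, adjusted p in edgeR = 0.0829). SPAC2E12.03c, a vacuolar basic amino acid transporter gene, was at 46.2 ± 7.62 CPM in the mutant and 31.7 ± 2.54 CPM in wt (SD, n = 3 each; log2 0.54, SE 0.142, adjusted p in edgeR = 0.0971). It overlaps the heat shock factor gene hsf1 on the opposite strand. In the list of 6 vacuolar amino acid transporters, which shares avt3, avt5, fnx2 and atg22 with the list before, 0 passed (0 unadjusted, 0 by DESeq2, 0 by limma voom) and the median was 0.06. Its largest values were 0.33 for atg22 (SE 0.302, adjusted p in edgeR = 0.574) and −0.24 for avt3 (SE 0.134, 0.336). In this list ers1 is annotated as an RNA-silencing factor and stm1 as a G-protein-coupled receptor.

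Regulators of amino acid uptake, 7 genes including the GATA factor gene gaf1, had 0 calls by edgeR (0 higher and 1 lower unadjusted, 0 by DESeq2, 0 by limma voom) and a median of −0.09. The isp7 gene, which encodes an oxygenase that regulates amino acid uptake, was at 0.39 (SE 0.213, adjusted p in edgeR = 0.327) and the arrestin gene any1 at −0.23 (SE 0.081, 0.168). The value of gaf1 was −0.10 (SE 0.0866, adjusted p = 0.566). In the list of 25 tested TOR and nitrogen signalling genes, edgeR called 0 (3 higher and 1 lower unadjusted, 1 and 1 by DESeq2, 0 by limma voom), with a median of 0.00. The TOR kinase genes tor1 and tor2 were at 0.12 (SE 0.114, adjusted p in edgeR = 0.570) and 0.08 (SE 0.0678, 0.543). The kinase gene ppk18 was at 0.55 (SE 0.119, 0.0612) and the S6 kinase family gene sck2 at 0.52 (SE 0.192, 0.173).

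The list for amino acid catabolism beyond gdh2 and dao1 had a median log2 fold change of −0.07 over 17 tested genes, with 7 positive and 10 negative. It also holds gdh1, glt1 and gln1, annotated as NADP-specific glutamate dehydrogenase, glutamate synthase and glutamate-ammonia ligase. Its median and summed level are therefore not those of catabolic enzymes alone. EdgeR called 0 of the 17 (1 higher and 4 lower unadjusted; DESeq2 1 and 3, limma voom 0). Members that degrade arginine and proline were among the most abundant. The ornithine transaminase gene car2 was at 943, 1294 and 841 CPM in the mutant, against 1984, 1232 and 2012 CPM in wt. Mutant replicate 2 was above wt replicate 2, so the groups overlapped (log2 −0.76, SE 0.240, adjusted p in edgeR = 0.136). The pyrroline-5-carboxylate dehydrogenase gene put2 was at 1227, 1530 and 1230 CPM in the mutant, against 1913, 1602 and 2074 CPM in wt. No mutant library reached a wt library, as in 13.8% of tested features, and put2 did not pass (log2 −0.49, SE 0.147, adjusted p in edgeR = 0.127). The summed level of the list was 7467 to 8573 CPM in the mutant libraries and 8594 to 9987 CPM in wt.

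The list drawn up for vacuolar proteases and peptidases other than isp6 had 0 calls among 6 genes by edgeR (1 higher unadjusted, 0 by DESeq2, 0 by limma voom), with a median of 0.18. Of its genes, cpy1 alone is annotated as vacuolar, so these values are not those of vacuolar proteases alone. The largest value was that of psp3, another subtilisin-type protease gene, at 446, 352 and 222 CPM in the mutant, against 264, 157 and 233 CPM in wt. As in isp4, mutant replicate 3 was among the wt values (log2 0.64, SE 0.282, adjusted p in edgeR = 0.233). This list also holds the aminopeptidase genes ape2 and ape4, and fra1, which RefSeq annotates as an iron-responsive transcriptional regulator. The acylpeptide hydrolase gene ppp16 was at 0.33 (SE 0.105, adjusted p in edgeR = 0.137).

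Of 27 tested autophagy genes, 1 was higher and 0 lower (4 and 0 unadjusted; DESeq2 2 and 0, limma voom 1 and 0), shares close to those of all features, of which edgeR called 2.29% higher. Log2 fold changes were positive in 25 and negative in 2, with a median of 0.19, where 50.7% of tested features were positive. Each mutant library lay above each wt library in 9 of the 27, and below in 1. These held for 16.7% and 13.8% of tested features. The called gene was atg8, whose ubiquitin-like product is attached to autophagosome membranes. It was at 145, 125 and 140 CPM in the mutant, against 101, 94.4 and 88.2 CPM in wt, a log2 fold change of 0.53 (SE 0.0926, adjusted p in edgeR = 0.0418). With any 1 of the 6 libraries left out atg8 was not called (adjusted p from 0.0588 to 0.206), and it overlaps rnf10 on the opposite strand. Next in size were the Atg8 protease gene atg4 at 0.47 (SE 0.208, adjusted p in edgeR = 0.233) and the sorting nexin gene atg20 at 0.43 (SE 0.153, 0.164). Without mutant replicate 3 and wt replicate 2, 6 of 27 were higher, against 14.3% of all features.

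**Figure D4:**
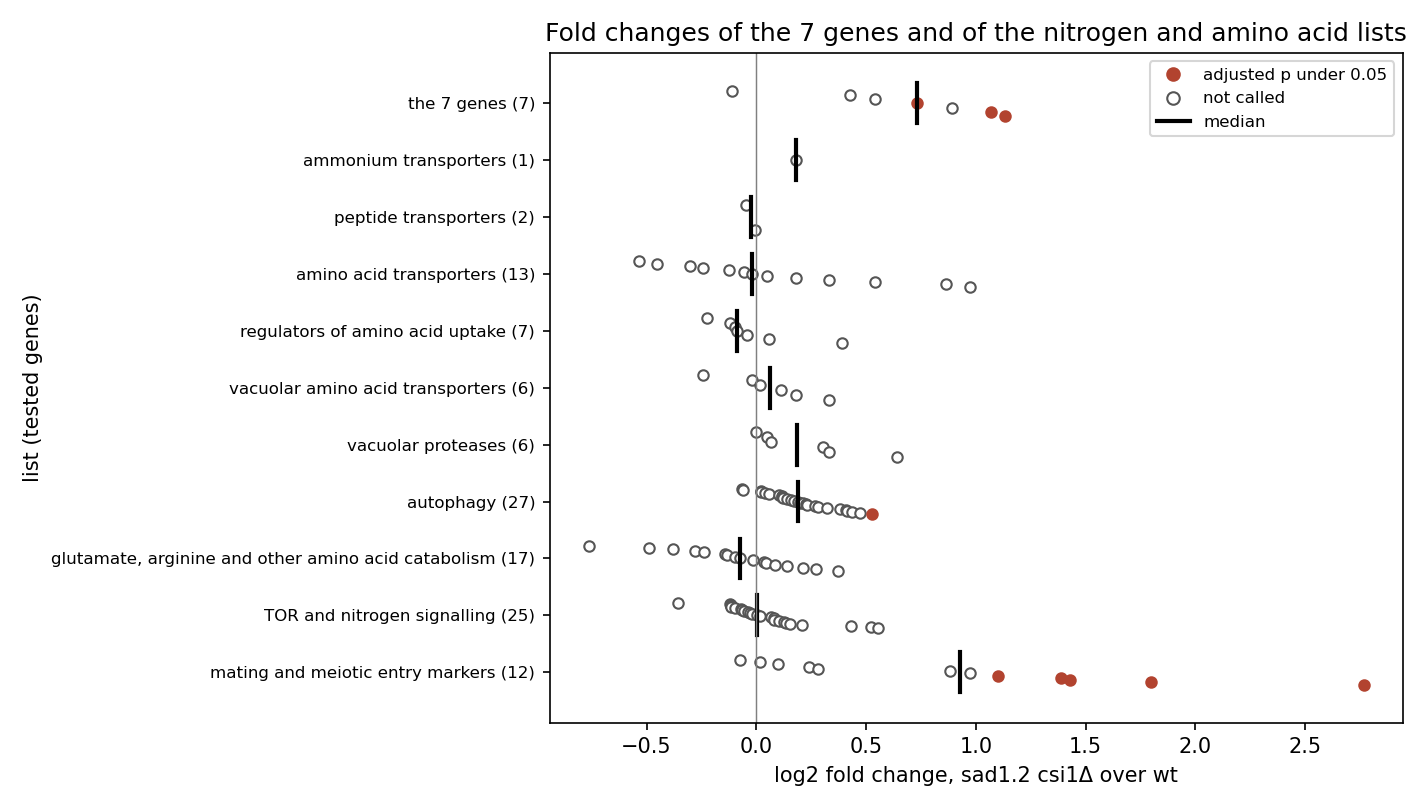
Log2 fold change, sad1.2 csi1Δ over wt (horizontal axis), of the 7 genes and of the tested genes of each list (rows, number tested in brackets); filled points have an edgeR adjusted p under 0.05 and black bars are medians. The 7 genes have a median of 0.73 with 3 filled points, and the transporter, catabolism and signalling lists have medians between −0.09 and 0.18 with none. The mating and meiotic entry markers have a median of 0.93 with 5 filled points. Autophagy genes have a median of 0.19 with 1 filled point, and the protease list 0.18 with none.

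Markers of mating and meiotic entry, the state that nitrogen-starved cells of this yeast enter, were counted beside the 7 genes. Of 12 tested genes 5 were higher and 0 lower (7 and 0 unadjusted; DESeq2 6 and 0, limma voom 3 and 0), against 2.29% of all features higher, and the median was 0.93. Background subtraction left 3 calls, coding genes only 2, a stricter filter of 5 CPM in 3 libraries, which drops weak genes, 2, and the replicate number as a block 0. Their summed level was 292 to 399 CPM in the mutant libraries and 232 to 265 CPM in wt, and mfm3 and ste6 were among the genes without a count. The meiotic regulator gene mei2 was at 63.5, 35.3 and 32.9 CPM in the mutant, against 15.6, 18.5 and 16.4 CPM in wt (log2 1.39, SE 0.263, adjusted p in edgeR = 0.0487). The gene of the starvation-responsive factor Ste11 had a log2 fold change of −0.07 (SE 0.374, 0.935). The other calls were mei3, fus1, mfm1 and map1, with log2 fold changes of 2.77, 1.10, 1.80 and 1.43. The pheromone genes map2 and mfm2 did not pass, at 0.97 (SE 0.258, 0.0972) and 0.88 (SE 0.532, 0.376). All 5 calls were lost without wt replicate 1 or 3 or mutant replicate 1 or 2 (adjusted p up to 0.216), those of mei2 and mfm1 also without wt replicate 2, and that of map1 also without mutant replicate 3. The part of these markers in the values of the 7 genes was not tested.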

How the data were processed

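For every library the authors deposited raw read counts, 1 value for each annotated transcript. Tools named in the submitters' processing notes are HISAT2, HTSeq and DESeq2, all without versions, and the build is ASM294v2. Which annotation was counted, whether strand was used and how multi-mapping reads were treated is not given in the sources used here. The authors' deposited table of their comparison holds mean normalized signal, log2 fold changes, standard errors and Wald scores, and p-values. It gives the genotypes no direction. Of 278 genes with a log2 fold change beyond 1 in size here, 253 had the same sign there, 3 the opposite sign, and 22 had no value, so positive was read as higher in the mutant. Normalized values per library, in 18 columns, were left unused.

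Names, products, lengths and overlaps came from RefSeq's annotation of ASM294v3, which matched 6848 of 7269 features. Since the builds differ by name, no coordinates or sequences are given, and the promoter motif search planned for these genes was not made. The main test was edgeR 4.0.16 in R 4.3.3 (glmQLFit with robust estimation, TMM, a model with genotype alone) on the 6 libraries, after filterByExpr (minimum count 10, minimum total 15) left 4941 features. SEs were derived from the test statistic. The fit was also run on counts simulated with a common dispersion and independent libraries. These libraries differ from that setting, so the run does not bear on calls near the threshold. Alternatives were DESeq2 1.42.0, limma 3.58.1 voom, other scalings, other filters, coding genes only, no robust estimation, a replicate block, left-out libraries and a background subtraction.

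The members and lists were chosen with earlier results of these data known, and lists are described by counts and medians without a set test. Named genes are the members, csi1, sad1, ste11, mei2, gaf1, tor1 and tor2. From each list the rule takes up to 3 called genes of smallest adjusted p and up to 2 uncalled ones of largest change at a mean of at least 5 CPM, and for each member the 3 coding genes most like it. SPCC132.03, SPNCRNA.834, map1, ers1, stm1, fra1, mfm3, ste6, amt3 and agp3 were named after their values were seen. So were gdh1, glt1, gln1, cpy1, ape2, ape4, mam1, mam2, map3 and sxa2. The symbols vba2, atg24b and asp3 were not matched.

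With 3 libraries against 3, an exact permutation test cannot give a p under 0.1. Replicates of a strain did not agree within sampling noise (chi-square per degree of freedom of 9.96 or more).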

Additional observations from a re-analysis of the deposited data

How the results depend on the processing

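The direction of isp4, isp5, isp6, gdh2, dao1 and amt1 was positive under all 17 alternatives, and gdh2 was called under 13 of them, dao1 under 10, isp6 under 5, isp4 and amt1 under 1 each, and isp5 and fnx1 under 0. The isp6 call was lost with DESeq2 size factors (log2 1.11), background subtraction (1.17), library sizes alone (1.27), limma voom (1.10), coding genes only (1.16), the stricter filter of 5 CPM in 3 libraries (1.16) and the replicate block (1.11). That of dao1 was lost with coding genes only (0.76) and the replicate block (0.72), and that of gdh2 with the replicate block (1.05). Losses with a library left out are given above. Library sizes alone turned fnx1 to 0.014 and moved the median of all tested features to 0.13, and those of the peptide transporters, amino acid transporters, uptake regulators and catabolism genes to 0.11, 0.10, 0.03 and 0.06. Without wt replicate 2 and mutant replicate 3, which were picked from these same data, isp4 (0.62) and amt1 (0.74) gained calls, for 5 genes of the 7. The cause of these changes was not tested.

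Counts over the whole table, higher and lower, were 364 and 146 with DESeq2, 716 and 309 without wt replicate 2 and mutant replicate 3, and 34 and 2 with coding genes only, where 1 of the 7 genes passed. They were 73 and 3 with the stricter filter, 69 and 5 with background subtraction, 113 and 3 with library sizes alone and 79 and 3 with limma voom, against 113 and 6 in the main test. With 1 library left out, 0 to 146 were higher and 0 to 5 lower, and 0 to 3 of the 7 genes passed. Log2 fold changes then lay between 0.87 and 1.31 for isp6, 0.88 and 1.196 for gdh2, 0.60 and 0.82 for dao1, 0.36 and 0.69 for isp4, 0.36 and 1.23 for isp5, 0.20 and 0.65 for amt1, and −0.20 and −0.03 for fnx1.

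With the replicate number as a block, edgeR called 0 and 0 features (845 at an unadjusted p under 0.05; 364 and 146 by DESeq2 without the block) and 0 of the 7 genes, with gdh2 at 1.05, dao1 at 0.72 and isp6 at 1.11. Deviations of same-numbered libraries from the means of their genotypes correlated at 0.44, −0.49 and −0.54, and mutant replicate 3 correlated best with wt replicate 2. Deviations from a mean of 3 libraries depend on each other, so these values cannot show whether the numbers pair the libraries.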

Other observations

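The third ammonium transporter gene, amt3, was below the expression filter. Its raw counts were 18, 12 and 4 in mutant replicates 1, 2 and 3, against 0, 1 and 0 in wt. DESeq2, run without that filter, called it higher (adjusted p = 0.0240). Per length these were 0.457, 0.343 and 0.116 CPM per kb in the mutant and 0.00, 0.0326 and 0.00 CPM per kb in wt. Each mutant value was below the median gain of weakly expressed coding genes in the same library, 0.555, 0.388 and 0.171 CPM per kb. Those genes had means of 0.5 to 5 CPM per kb, above every amt3 value, so the comparison cannot decide what part background had. The source of the amt3 counts was not tested. Amt3 also overlaps SPAC2E1P3.01 and SPNCRNA.859 on the opposite strand.

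A further transporter gene with low counts was agp3, whose product is annotated as an amino acid transporter. It was at 6.78, 5.51 and 4.65 CPM in the mutant, against 3.48, 2.00 and 3.12 CPM in wt, and the groups did not overlap. On the opposite strand it overlaps SPCC965.10. Its log2 fold change was 0.97 (SE 0.272, adjusted p in edgeR = 0.106), and DESeq2 called it (adjusted p = 0.0284).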
